A study of Mus musculus with 12 samples.

Results

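The cathepsins are the proteases of the endosome and lysosome, and 10 of their genes are described here in mouse bone marrow-derived macrophages (BMDMs). The members were chosen by name: Ctsa, Ctsb, Ctsc, Ctsd, Ctsf, Ctsh, Ctsk, Ctsl, Ctss and Ctsz, which are 10 of the 24421 gene symbols counted. Total RNA was sequenced. All 10 symbols were found in the annotation and all 10 passed the filter on low counts. The study asked how I-BET151 (iBET), a small molecule that blocks the bromodomains of BET proteins and so their docking on acetylated chromatin, alters the response of macrophages to IgG immune complexes.

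All cells came from C57BL/6 mice and shared the same differentiation, 5 days in macrophage colony-stimulating factor (M-CSF) at 100 ng/mL with new medium on day 3. In the DMSO Ova group the cells received the solvent (given in the labels as 5% DMSO) and free ovalbumin for 4 hours. In the iBET Ova group they received 5 µM iBET and free ovalbumin. In the DMSO IC group they received the solvent and ovalbumin bound by anti-ovalbumin IgG (IC), and in the iBET IC group both iBET and IC. The labels give DMSO for the DMSO groups only, while the study made its stock of iBET in DMSO. As labelled, each iBET comparison also differs in the solvent, and iBET and solvent cannot then be told apart. Whether the drug and the stimulus were added together or the drug first is described differently in the labels and in the study's text. Marrow of 3 mice, named A, B and C, entered every group, so that each group held 3 libraries and every comparison can be read within a mouse. The cells were differentiated in culture from marrow and are a model of macrophages rather than macrophages taken from a tissue.

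Cathepsins are made as inactive precursors, are carried to endosomes largely by the mannose 6-phosphate receptors and become active as the compartment turns acidic. They differ in their chemistry. Ctsb, Ctsl, Ctss, Ctsk, Ctsf, Ctsh, Ctsc and Ctsz encode papain-like cysteine proteases, Ctsd encodes an aspartic protease, and Ctsa encodes a serine carboxypeptidase. In macrophages they digest what has been taken up by phagocytosis, and Ctss is known for trimming the invariant chain from MHC class II molecules.

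Of the 12 libraries, 1 stood apart. The 45S ribosomal precursor transcript Rn45s took 77.4% of the counts in DMSO Ova of mouse A, against 1.41% to 7.83% in the other 11, and left 1768133 counts for all other genes there, against 7247830 to 16899110. Library totals ran from 7549849 to 17387639 counts. Levels are given as CPM, counts scaled to a common library size with TMM factors, and the values of the members in the comparisons that use DMSO Ova are also given without that library. The macrophage identity of the cells was checked: 8 of 9 macrophage markers were in the table (Csf1r, Cd68, Lyz2 and Mertk among them), the lowest of them, Mertk, ran from 5.72 to 31.8 CPM, and they summed to 6138 to 8345 CPM per library. Marker sums for B cells, T cells, dendritic cells and mast cells stayed at or below 4.43 CPM, Cpa3 and Fcer1a had no count, and all 4 erythroid markers were at 0. Neutrophil markers summed to 9.76 to 56.3 CPM per library and osteoclast markers to 56.6 to 85.3 CPM, and both are described further on.

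The promoters of the members that moved with iBET, or came close to doing so, are shown first. The reason is that Tfeb and related factors, among the regulators of lysosomal genes described further on, bind the letters CACGTG. RefSeq promoter windows on GRCm38.p6, the build of the files, run from 250 bases before to 50 bases after a start and existed for 8 of the 10 members. Ctsb and Ctsh were not among them. The windows of Ctsa (2 annotated starts), Ctsd and Ctsz follow, read 5′ to 3′ on the gene's own strand, with each CACGTG in capitals.
Ctsa first start, chr2:164832622-164832921, plus strand: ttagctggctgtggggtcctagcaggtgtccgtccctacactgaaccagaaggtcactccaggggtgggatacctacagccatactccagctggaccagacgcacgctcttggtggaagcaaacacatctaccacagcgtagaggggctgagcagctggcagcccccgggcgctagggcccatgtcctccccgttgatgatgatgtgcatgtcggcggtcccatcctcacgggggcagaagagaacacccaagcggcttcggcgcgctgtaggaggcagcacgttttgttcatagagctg
Ctsa second start, chr2:164833523-164833822, plus strand: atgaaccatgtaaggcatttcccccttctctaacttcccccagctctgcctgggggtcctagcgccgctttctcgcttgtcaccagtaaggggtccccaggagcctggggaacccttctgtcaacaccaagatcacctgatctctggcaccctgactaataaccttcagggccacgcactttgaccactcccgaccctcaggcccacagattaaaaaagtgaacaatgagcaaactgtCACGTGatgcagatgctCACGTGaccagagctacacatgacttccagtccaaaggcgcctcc
Ctsd, chr7:142387778-142388077, minus strand: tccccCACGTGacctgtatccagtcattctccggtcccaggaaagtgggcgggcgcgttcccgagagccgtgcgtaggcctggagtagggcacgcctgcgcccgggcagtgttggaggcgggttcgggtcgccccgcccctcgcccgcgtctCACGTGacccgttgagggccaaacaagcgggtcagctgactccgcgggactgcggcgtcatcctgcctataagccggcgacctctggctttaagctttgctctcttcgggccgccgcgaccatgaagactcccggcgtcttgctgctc
Ctsz, chr2:174438990-174439289, minus strand: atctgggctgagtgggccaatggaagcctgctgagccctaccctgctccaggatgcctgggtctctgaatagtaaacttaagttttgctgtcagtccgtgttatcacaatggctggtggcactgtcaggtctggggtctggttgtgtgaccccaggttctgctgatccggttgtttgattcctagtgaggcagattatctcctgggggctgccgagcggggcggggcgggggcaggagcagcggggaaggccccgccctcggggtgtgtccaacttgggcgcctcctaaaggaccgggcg
The motif CACGTG reads the same on both strands. It was present in 4 of the 9 member windows, at the second Ctsa start (2 copies), in Ctsd (2 copies), in Ctsl (1 copy) and in Ctsf (1 copy), and in 7.15% of all 32851 promoter windows of the same length. The first copy began at position -12 from the second Ctsa start, at -245 in Ctsd, at -236 in Ctsl and at -79 in Ctsf. Neither the Ctsz window nor that of the first Ctsa start held these letters. A match is a description of the sequence and no evidence that a factor sits there.

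The order of the cathepsins by level was steep. Levels between genes were compared per length, as CPM per kilobase of the merged exons of each gene. Ctss had the highest median over the 12 libraries, 3055 CPM per kilobase, followed by the aspartic protease Ctsd at 1638, the abundant lysosomal protease Ctsb at 1304, the carboxypeptidase Ctsz at 471, the endopeptidase Ctsl at 295 and the serine carboxypeptidase Ctsa at 86.6. Ctsc, which trims dipeptides from pro-enzymes such as the granzymes, stood at 20.4 and the aminopeptidase Ctsh at 15.8. Ctsk, the collagen-degrading protease of osteoclasts, stood at 1.15 and Ctsf at 0.573. Each gene lay above the next in 12 of 12 libraries, except that Ctsc lay above Ctsh in 10 of 12, so these 2 neighbours were not apart in every library. With the longest transcript in place of merged exons, Ctsk and Ctsf changed places in the ranks of the medians and the other 8 ranks stayed. In iBET Ova, Ctsb then averaged 1946 CPM per kilobase and Ctsd 1887. By that length Ctsd was thus not above Ctsb in every library.

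**Figure D1:**
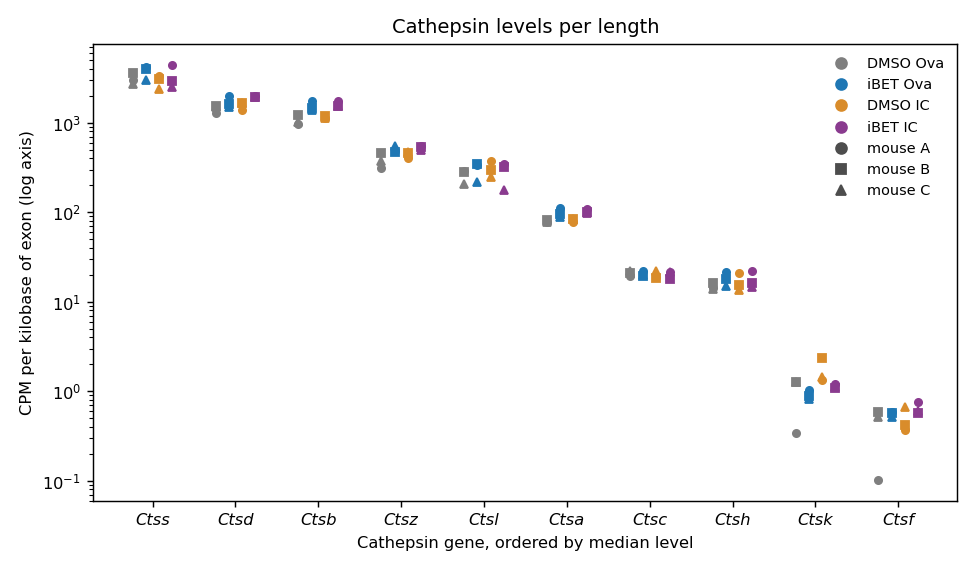
Each point is 1 library: the level of a cathepsin in CPM per kilobase of merged exon (log axis) by gene, with colour for the group and shape for the mouse. Ctss lies at the top with a median of 3055 and Ctsf at the bottom with 0.573; the lowest Ctsk and Ctsf points are the shallow DMSO Ova library of mouse A.

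Summed over the 10 genes, cathepsin transcripts made up 1.69% of TMM-scaled counts in DMSO Ova (16909 ± 1802 CPM, SD, n = 3), 2.16% in iBET Ova (21609 ± 2816), 1.78% in DMSO IC (17819 ± 934) and 2.20% in iBET IC (22046 ± 2580). Without the shallow library, the other 2 DMSO Ova libraries averaged 1.74% (15821 and 18990 CPM). The sum was not tested, since it follows its most abundant members. Ctsb alone gave 37.1% to 47.2% of it in each library, and Ctsb, Ctss and Ctsd together gave 80.4% to 87.4%. In bulk RNA, fewer cells of a type and less RNA per cell cannot be told apart, and that holds for every level given here.

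iBET treatment was followed by higher Ctsb and Ctsa in both the Ova and the IC setting, and by higher Ctsz in the Ova setting. In Ova, 3 of 10 members were called (edgeR quasi-likelihood test, Benjamini-Hochberg adjusted p under 0.05 over all 11468 genes tested), all 3 higher, where 31.3% of all genes tested were called and 17.1% were called higher. In IC, 2 of 10 were called, both higher, where 34.8% of all genes were called and 19% were called higher. In either direction the member shares lay at or below these backgrounds, while the 3 of 10 higher calls in Ova compare with 17.1%, a count too small to set the family apart. The median log2 fold change of the 10 members was 0.25 in Ova and 0.21 in IC, beside 0.02 and -0.00 over all genes tested. The groups of 3 libraries did not overlap for 3 members in Ova (Ctsa, Ctsb and Ctsz; 45.1% of all genes) and for 5 in IC (Ctsa, Ctsb, Ctsd, Ctsz and Ctsk; 48.6% of all genes). The summed macrophage markers moved with iBET as well. Their sum was 6386 to 7535 CPM in DMSO Ova and 7027 to 8345 CPM in iBET Ova, with overlap. In IC it was 6138 to 7041 CPM with DMSO and 7426 to 8335 CPM with iBET, without overlap. Lyz2, at 2613 to 4361 CPM, was the largest part of the sum. Of these 8 markers, Mertk rose in both settings (log2 fold change 0.77 and 1.25, edgeR adjusted p = 0.0354 and 0.00244). Lyz2 rose in IC (0.41, edgeR adjusted p = 0.0222). No other marker was called in either setting. Csf1r was lower in both (-0.16 and -0.03), Itgam in Ova (-0.01) and Cd68 in IC (-0.004). The part of these markers in the cathepsin values was not tested.

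**Figure D2:**
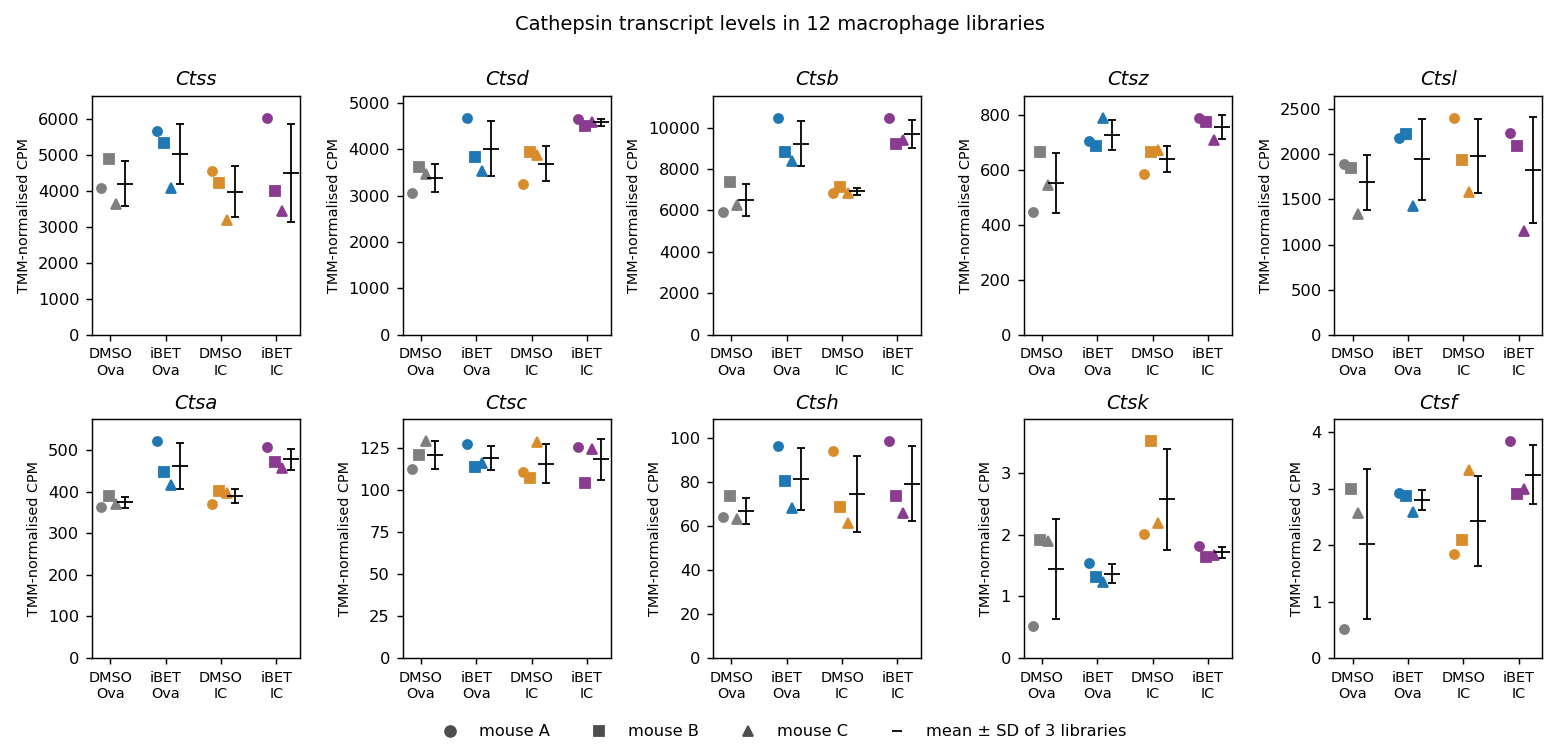
Each panel is 1 cathepsin, with TMM-normalised CPM on the y axis (from 0) and the 4 groups on the x axis. Points are single libraries with shape for the mouse, and the black mark is the mean ± SD of 3 libraries. In the Ctsb panel all 6 iBET libraries, from 8384 to 10476 CPM, lie above all 6 DMSO libraries, from 5912 to 7399 CPM.

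Ctsb encodes a cysteine protease that cuts both within proteins and dipeptides from their ends. In Ova, its level in mice A, B and C was 5912, 7399 and 6241 CPM with DMSO and 10471, 8834 and 8384 CPM with iBET. In IC it was 6850, 7133 and 6831 CPM with DMSO and 10476, 9211 and 9419 CPM with iBET. Every iBET library was higher than every DMSO library, whichever the stimulus, and each mouse moved the same way. Ctsb rose 1.42-fold in Ova (95% interval 1.18 to 1.70; log2 fold change 0.50, SE 0.12, edgeR adjusted p = 0.00746). In IC it rose 1.40-fold (1.17 to 1.68; log2 fold change 0.48, SE 0.12, edgeR adjusted p = 0.0081). The size differed between mice: in Ova the change was 0.82 in mouse A, 0.26 in mouse B and 0.43 in mouse C on the log2 scale, and in IC it was 0.61, 0.37 and 0.46.
Leaving out any 1 library kept the Ctsb call in both settings. The call in Ova then ran up to an adjusted p of 0.0435, reached without DMSO Ova of mouse A, where the log2 fold change was 0.39. Leaving out a whole mouse gave edgeR adjusted p-values in Ova of 0.0634, 0.0506 and 0.0593 for mice A, B and C, and in IC of 0.0192, 0.0694 and 0.0674, so that the IC call held without mouse A and the other calls were lost. The last 774 bases of Ctsb (GRCm38/mm10 chromosome 14, 63122462 to 63145923, plus strand) lie opposite exons of Fdft1, the squalene synthase gene, and the use of strand in counting is not given in the sources used here. Fdft1 stood at 29.9 to 42.5 CPM and was lower with iBET in Ova (log2 fold change -0.34, SE 0.12, edgeR adjusted p = 0.0467).

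Ctsa encodes protective protein, a carboxypeptidase that also holds neuraminidase 1 and beta-galactosidase together in the lysosome. In Ova its levels in mice A, B and C were 364, 389 and 371 CPM with DMSO and 522, 447 and 415 CPM with iBET. In IC they were 369, 401 and 397 CPM with DMSO and 507, 471 and 457 CPM with iBET. The groups did not overlap in either setting. The narrow spread of the DMSO libraries and the order of the iBET libraries, with mouse A above B and B above C, were seen under both stimuli. Ctsa rose 1.23-fold in Ova (95% interval 1.06 to 1.43; log2 fold change 0.30, SE 0.10, edgeR adjusted p = 0.0377). In IC it also rose 1.23-fold (1.06 to 1.43; log2 fold change 0.30, SE 0.10, edgeR adjusted p = 0.0352).
These calls lay close to the threshold. In Ova the call was kept without DMSO IC of mouse B, iBET IC of mouse A or iBET Ova of mouse C (adjusted p 0.0496, 0.0482 and 0.0208) and lost without any of the other 9 libraries (0.0503 to 0.16, with 0.154 without DMSO Ova of mouse A). In IC it was lost without any of the DMSO IC or iBET IC libraries (0.055 to 0.144) or without iBET Ova of mouse B (0.0525), and kept without any of the other 5. Leaving out any 1 mouse ended both calls. Ctsa (chromosome 2, 164832873 to 164841032, plus strand) shares 495 exonic bases with Pltp and 324 with Neurl2, both on the opposite strand. Pltp, the phospholipid transfer protein gene, stood at 351 to 654 CPM, in the range of Ctsa itself, and was also higher with iBET in IC (log2 fold change 0.51, SE 0.19, edgeR adjusted p = 0.0482). Its part in the Ctsa values was not tested.

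Ctsz encodes a carboxypeptidase that removes single residues and carries an integrin-binding motif in its pro-region. In Ova it stood at 447, 665 and 543 CPM with DMSO in mice A, B and C and at 705, 686 and 788 CPM with iBET. In IC it stood at 587, 666 and 672 CPM with DMSO and at 790, 775 and 708 CPM with iBET. The groups did not overlap in either setting, although the highest DMSO Ova library, from mouse B, came close to the lowest iBET one. Ctsz rose 1.31-fold in Ova (95% interval 1.07 to 1.61; log2 fold change 0.39, SE 0.13, edgeR adjusted p = 0.0403), and its value in IC was 1.18-fold (0.967 to 1.44; adjusted p = 0.181).
The Ova call was lost without DMSO Ova of mouse A (log2 fold change 0.22, adjusted p = 0.224). It was kept only without DMSO Ova of mouse B (0.00852) or DMSO IC of mouse C (0.0498), and lost without each of the other 10 libraries (0.0502 to 0.224). It was lost without any 1 mouse (0.0597 to 0.276) and in DESeq2 (adjusted p = 0.0588). Whether the Ctsz response differs between Ova and IC was tested as an interaction and not called (95% interval of the log2 difference -0.56 to 0.26). Ctsz (chromosome 2, 174427493 to 174439039, minus strand) shares 10 exonic bases with Nelfcd on the opposite strand, which stood at 15.4 to 27.6 CPM.

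Ctsd encodes the main aspartic protease of the lysosome. In Ova it stood at 3048, 3613 and 3479 CPM with DMSO and at 4682, 3829 and 3532 CPM with iBET, and these groups overlapped. In IC it stood at 3263, 3945 and 3874 CPM with DMSO and at 4654, 4511 and 4591 CPM with iBET, and these did not. The IC value was 1.24-fold (95% interval 1.03 to 1.50; log2 fold change 0.31, SE 0.13, edgeR adjusted p = 0.0717) and the Ova value 1.19-fold (0.983 to 1.43; adjusted p = 0.155), so that neither passed. Without DMSO Ova of mouse A the Ova log2 fold change went from 0.25 to 0.13 (adjusted p = 0.53). The IC difference was called only in the fit without iBET Ova of mouse A (adjusted p = 0.0448). The SD of Ctsd over 3 libraries was 71.5 CPM in iBET IC and 597 CPM in iBET Ova. Ctsd (chromosome 7, 142375911 to 142388038, minus strand) shares 808 exonic bases with the same-strand annotated gene Gm49369, which is not among the symbols counted.

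**Figure D3:**
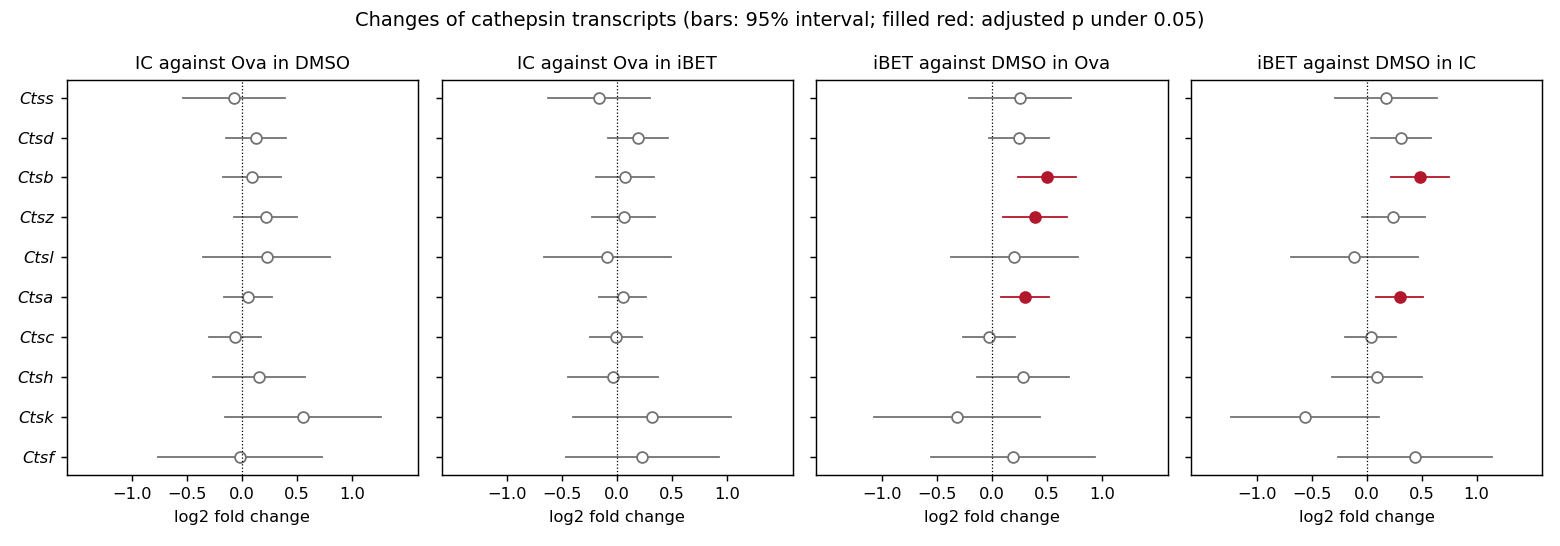
Each row is 1 cathepsin and each panel 1 comparison; points are log2 fold changes and bars their 95% intervals from the edgeR fit, filled red where the adjusted p was under 0.05. The filled points are Ctsb, Ctsz and Ctsa in the iBET comparison in Ova and Ctsb and Ctsa in that in IC, and the widest intervals belong to the low genes Ctsk and Ctsf.

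The remaining 6 members did not pass in either iBET comparison. For Ctss the values were 1.20-fold in Ova (95% interval 0.867 to 1.65) and 1.13-fold in IC (0.817 to 1.56), and for Ctsl 1.15-fold (0.769 to 1.72) and 0.925-fold (0.619 to 1.38). Ctsh gave 1.22-fold (0.911 to 1.62) and 1.06-fold (0.801 to 1.41). Apart from Ctsl in IC, whose interval ended at 1.38, these intervals reach the 1.42-fold and 1.40-fold values of Ctsb. Ctsc was the steadiest of the 10, with a range of 104 to 129 CPM over the 12 libraries and values of 0.983-fold (0.834 to 1.16) in Ova and 1.02-fold (0.869 to 1.21) in IC, intervals whose upper ends lie below the values of Ctsb. Without DMSO Ova of mouse A the Ova log2 fold changes were 0.19 for Ctss, 0.24 for Ctsl, 0.21 for Ctsh and -0.12 for Ctsc, none called.
Ctsk and Ctsf were near the floor of detection. Ctsk had 1 to 34 counts per library and Ctsf 1 to 72, and both had 1 count in the shallow DMSO Ova library of mouse A. Ctsk stood at 2.02, 3.52 and 2.19 CPM in DMSO IC and at 1.81, 1.65 and 1.68 CPM in iBET IC, with no overlap, but its value of 0.677-fold (95% interval 0.424 to 1.08, edgeR adjusted p = 0.18) did not pass. Ctsk is a defining product of osteoclasts, and the summed level of 5 other osteoclast markers in the table was 72.3 to 80.8 CPM in DMSO IC and 56.6 to 68.8 CPM in iBET IC, with the osteoclast receptor gene Calcr at 0 in every library. Most of that sum was Nfatc1 (49.3 to 67.3 CPM, log2 fold change 0.01 in IC). The fusion genes Dcstamp (-2.24, edgeR adjusted p = 9.43e-05) and Ocstamp (-2.05, adjusted p = 0.0389) fell with iBET in IC. Ocstamp was near the floor, at 0 to 2.19 CPM. Acp5 gave -0.38 in IC and was not called (edgeR adjusted p = 0.481). Whether osteoclast-like cells had a part in the Ctsk level was not tested. Ctsf, a widely expressed cysteine protease, gave 1.14-fold (0.679 to 1.92) in Ova and 1.36-fold (0.831 to 2.21) in IC. Without DMSO Ova of mouse A the Ova log2 fold change was -0.52 for Ctsk (-0.32 with it) and -0.04 for Ctsf (0.19 with it).

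Immune complexes themselves left the cathepsin transcripts without a called change at 4 hours. With DMSO, 0 of 10 members were called between IC and Ova by edgeR (0 also at an unadjusted p under 0.05, and 0 by DESeq2), where 1.22% of all genes were called. With iBET, 0 of 10 were called (again 0 unadjusted and 0 by DESeq2), where 0.349% of all genes were called. Both counts were 0 under every alternative tried. With DMSO, Ctsb was at 1.06-fold (95% interval 0.888 to 1.28), Ctsa at 1.04-fold (0.894 to 1.21) and Ctsd at 1.09-fold (0.905 to 1.32), so that a rise of Ctsb by more than 1.28-fold lay outside its interval. Ctss at 0.948-fold (0.687 to 1.31), Ctsl at 1.17-fold (0.782 to 1.75) and Ctsk at 1.47-fold (0.90 to 2.41) had wider intervals. Without DMSO Ova of mouse A the log2 fold change went from 0.09 to 0.0029 for Ctsb, from 0.05 to 0.01 for Ctsa, from 0.13 to 0.04 for Ctsd, from 0.21 to 0.06 for Ctsz, from -0.08 to -0.12 for Ctss, from 0.23 to 0.29 for Ctsl and from 0.56 to 0.39 for Ctsk. In the same fit it was -0.14 for Ctsc, -0.22 for Ctsf and 0.10 for Ctsh, and no member was called. With DMSO the Ctsk libraries did not overlap (0.514, 1.92 and 1.91 CPM in Ova of mice A, B and C against 2.02, 3.52 and 2.19 CPM in IC), as was true of 15.3% of all genes, and with iBET Ctsk was again the 1 member without overlap (18.9% of all genes).
The 4 comparisons share groups: each DMSO group serves as the control of an iBET comparison and as one side of an IC comparison. The interaction, that is the IC response with iBET minus that with DMSO, was called for 0 of 10 members (0 at an unadjusted p under 0.05, 0 by DESeq2) and for 0% of all genes. For Ctsb its 95% interval ran from -0.39 to 0.35 on the log2 scale, and for Ctsa from -0.31 to 0.30.

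A further pattern lay between the mice rather than between the groups. It was looked for after the values had been seen, with the mouse term of the fit that has mouse as a block, and it is a description of 3 animals. Ctsl, an endopeptidase of broad range, stood at 1890, 1844 and 1340 CPM in DMSO Ova of mice A, B and C, at 2178, 2228 and 1427 CPM in iBET Ova, at 2405, 1939 and 1587 CPM in DMSO IC and at 2241, 2088 and 1153 CPM in iBET IC. Mouse C was lowest in each of the 4 groups, and its 4 Ctsl libraries (1153 to 1587 CPM) did not overlap those of mouse A or B. Ctss was likewise lowest in mouse C within each group, with mouse C at 3195 to 4081 CPM, mouse B at 4001 to 5343 CPM and mouse A at 4077 to 6036 CPM. Ctsh ran from 61.2 to 68.0 CPM in mouse C, from 68.5 to 80.4 CPM in mouse B and from 64.2 to 98.6 CPM in mouse A.
By the mouse term, 3 of 10 members differed between mice, where 5.55% of all genes did. The edgeR adjusted p was 0.00175 for Ctsl (mouse C at 0.632-fold of mouse A), 0.0463 for Ctss (0.708-fold) and 0.047 for Ctsh (0.726-fold). Each of the 3 was lowest in mouse C in 4 of 4 groups, as were 5.39% of all genes. With the shallow DMSO Ova library left out, the adjusted p-values were 0.00154, 0.00968 and 0.00281, where 4.84% of all genes were called. Ctsb, Ctsa, Ctsd, Ctsz, Ctsc, Ctsk and Ctsf were not called by mouse. Ctsl (chromosome 13, 64359337 to 64370890, minus strand) shares 1742 exonic bases with the antisense gene Gm47123 and 395 with the pseudogene Gm49230, neither of which is among the symbols counted, so reads from them cannot be told apart from Ctsl reads here.
Neutrophil markers moved with the mouse as well. Their summed level (7 of 8 markers in the table) was 9.76 to 17.3 CPM in mouse A, 23.5 to 48.4 CPM in mouse B and 44.8 to 56.3 CPM in mouse C, and S100a8, S100a9, Mpo, Ngp and Ltf were called by the mouse term. Of the osteoclast markers, Acp5 (2.16 to 7.81 CPM) was called too, lower in mouse C than in mouse A (-0.88 on the log2 scale, edgeR adjusted p = 0.0128). By the same difference Nfatc1 gave -0.13, Dcstamp 0.09 and Ocstamp 0.51, none of them called. The neutrophil cathepsin Ctsg had 0 to 4 counts per library. The summed macrophage markers were 6138 to 8345 CPM in mouse A, 7041 to 8335 CPM in mouse B and 6386 to 7426 CPM in mouse C, and among them Mertk was called by the mouse term (mouse C minus mouse A -0.56 on the log2 scale, edgeR adjusted p = 0.00704). The part of cell composition in the Ctsl, Ctss and Ctsh values was not tested.

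**Figure D4:**
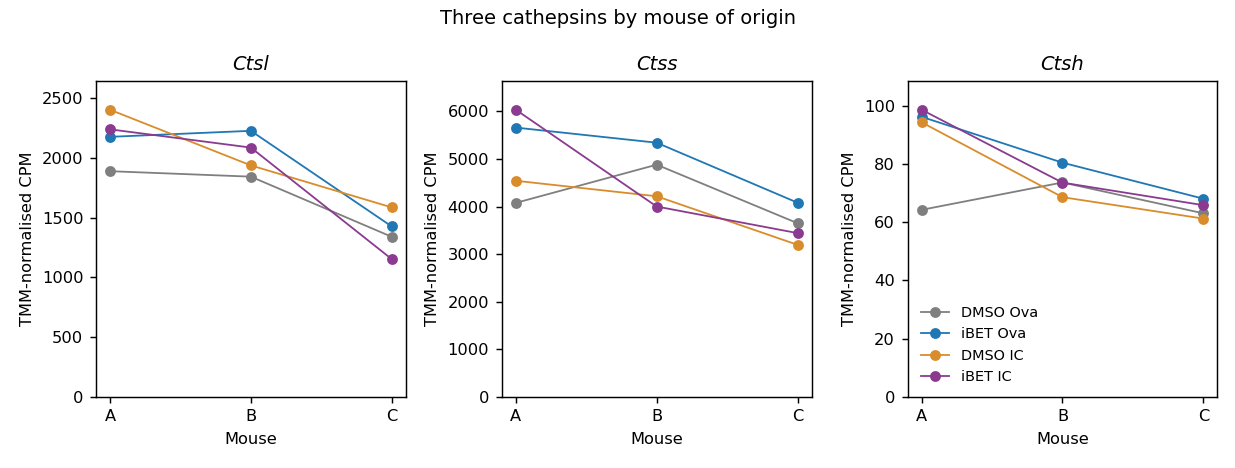
TMM-normalised CPM (y axis from 0) of Ctsl, Ctss and Ctsh by mouse, 1 point per library, with lines joining the 3 libraries of a group. Mouse C is the lowest point of every line, from 1153 to 1587 CPM for Ctsl.

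How alike the members were across the 12 libraries was measured as the root mean square difference of their centred log2 CPM, a description with no test, since depth and library are shared by all genes. Ctsa and Ctsd were the closest pair (0.0835), followed by Ctsa and Ctsb (0.115), Ctsb and Ctsd (0.139) and Ctsh and Ctss (0.14). Outside the family, the gene most like Ctsa was Dstn (0.0546, against a median of 0.311 over 9420 candidates) and the gene most like Ctsb was Sgpl1 (0.0724, against a median of 0.361). Ctsk and Ctss are neighbours on chromosome 3, with 17423 bases between them, yet differed by 0.618 in this measure.

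The rest of the protease system was read from lists of related genes. Of 16 other genes with a cathepsin name or a cathepsin-like product, 10 had no count in any library, among them the placental cathepsins Ctsj, Ctsm, Ctsq and Ctsr, and 3 could be tested. Ctso stood at 22.8 to 36.9 CPM and Ctse at 0.662 to 2.62 CPM. Napsa, an aspartic protease related to Ctsd, rose with iBET in IC, where it averaged 17.1 ± 2.54 CPM with DMSO and 24.2 ± 2.55 CPM with iBET (SD, n = 3; log2 fold change 0.50, SE 0.15, edgeR adjusted p = 0.0246) and gave 0.25 (SE 0.16, adjusted p = 0.255) in Ova. The IC call was lost without DMSO IC of mouse A or B (0.112 and 0.054), without iBET IC of mouse A or C (0.0657 and 0.0908) and without any 1 mouse (0.0812 to 0.134).
Among inhibitors of cathepsins and related serpins, 9 of 19 genes in the table could be tested, 0 rose and 3 fell with iBET in both settings (14.2% of all genes were called lower in Ova and 15.8% in IC). Serpinb6b, an intracellular serpin, fell in Ova, with 67.6 ± 14.2 CPM under DMSO and 13.4 ± 3.10 CPM under iBET (log2 fold change -2.30, SE 0.22, edgeR adjusted p = 1.34e-05). In IC it fell likewise, with 82.8 ± 19.6 CPM under DMSO and 11.7 ± 1.45 CPM under iBET (-2.82, SE 0.22, edgeR adjusted p = 2.67e-06). Serpinb9, best known as an inhibitor of granzyme B, fell by 1.57 on the log2 scale in Ova and by 1.36 in IC. Ctla2b, whose product resembles a cathepsin pro-region, fell by 1.01 and by 1.04. These calls were lost in Ova without iBET Ova of mouse C (edgeR adjusted p = 0.0579) and in IC without iBET IC of mouse B (0.0517). With 1 mouse left out, the Ctla2b call was kept in 1 of 3 fits in Ova and in 2 of 3 in IC. The cystatin genes Cst3 and Cstb, which encode direct inhibitors of the cysteine cathepsins, were tested and not called.
Of 11 genes for processing enzymes, partners and substrates, 3 rose and 1 fell in each setting, where 17.1% of all genes rose and 14.2% fell in Ova and 19% rose and 15.8% fell in IC. Neu1, the neuraminidase that the Ctsa product protects, rose in Ova, with 41.6 ± 1.43 CPM under DMSO and 76.0 ± 3.86 CPM under iBET (log2 fold change 0.87, SE 0.12, edgeR adjusted p = 0.00015). In IC it stood at 45.0 ± 6.37 CPM under DMSO and 85.0 ± 7.24 CPM under iBET (0.92, SE 0.11, edgeR adjusted p = 7.3e-05). Ifi30, which encodes the lysosomal thiol reductase, rose by a log2 fold change of 0.52 in Ova and 0.31 in IC. Its IC call (edgeR adjusted p = 0.0479) was kept in only 1 of 12 fits without 1 library and 1 of 3 without 1 mouse. Cln3, a lysosomal membrane protein gene, fell by 0.55 on the log2 scale in Ova and by 0.63 in IC. Its Ova call was lost without iBET Ova of mouse A (edgeR adjusted p = 0.0664). With 1 mouse left out, the Cln3 call was kept in 1 of 3 fits in each setting.
Of 11 genes for mannose 6-phosphate and sortilin trafficking, 5 rose and 1 fell in Ova, and 3 rose and 1 fell in IC, beside the same shares of all genes, 17.1% and 14.2% in Ova and 19% and 15.8% in IC. Gnptab, which encodes the subunits that start the mannose 6-phosphate tag, fell in Ova, with 202 ± 22.9 CPM under DMSO and 129 ± 11.3 CPM under iBET (log2 fold change -0.64, SE 0.11, edgeR adjusted p = 0.000682), and in IC (-0.59). With 1 mouse left out, the Gnptab call was kept in 2 of 3 fits in each setting. In Ova and IC, the adaptor Gga2 rose by a log2 fold change of 0.83 and 0.86, and the sorting receptor Sort1 by 0.53 and 0.68. The Sort1 call was kept in 1 of 3 fits without 1 mouse in Ova and in 2 of 3 in IC. The Sort1 call in Ova was lost without any of the 3 DMSO Ova libraries (0.0744, 0.107 and 0.0578 for mice A, B and C) or without iBET Ova of mouse B or C (0.067 and 0.102).
Of 15 regulators of lysosomal genes and of their nutrient-sensing control, 5 rose and 4 fell in each setting, where 31.3% of all genes were called in Ova and 34.8% in IC. Mitf fell in Ova, with 120 ± 19.7 CPM under DMSO and 43.2 ± 4.15 CPM under iBET (log2 fold change -1.47, SE 0.12, edgeR adjusted p = 4.19e-06), and in IC with a log2 fold change of -1.63. Tfeb, which encodes the best-known activator of CACGTG-bearing lysosomal genes, fell in Ova, with 28.6 ± 3.51 CPM under DMSO and 15.2 ± 2.11 CPM under iBET (-0.91, SE 0.15, adjusted p = 0.000573), and in IC (-0.98), and the related Tfec fell in both. Tfe3, a further gene of that family of factors, rose in Ova, with 79.7 ± 9.74 CPM under DMSO and 104 ± 3.67 CPM under iBET (0.38, SE 0.12, edgeR adjusted p = 0.0329), and gave 0.30 in IC (adjusted p = 0.0765; blocking on mouse, 0.0275). The Tfe3 call in Ova was lost without DMSO Ova of mouse A or C (0.168 and 0.0843), without iBET Ova of mouse A, B or C (0.0913, 0.0781 and 0.052) and without any 1 mouse, and in IC a call was gained without DMSO IC of mouse B (0.022). Rragd fell in Ova (-0.78, adjusted p = 0.045; 0.075 without DMSO Ova of mouse A, and 0.0503 to 0.143 without any of 9 libraries, that one included) and gave -0.63 in IC (edgeR adjusted p = 0.0681; blocking on mouse, 0.0225; without DMSO Ova or iBET Ova of mouse A, 0.0472 and 0.039). Fnip1, Rraga and Mcoln1 rose in both settings. For Mcoln1 the log2 fold change was 0.61 in Ova and 0.56 in IC (edgeR adjusted p = 0.0232 and 0.0279). Its call was kept in 8 of 12 fits without 1 library in Ova and in 7 of 12 in IC. Without 1 mouse it was kept in 0 of 3 fits in Ova and in 1 of 3 in IC. None of the genes of these 5 lists was called in either IC comparison or in the interaction by edgeR, with 0 to 3 genes per list at an unadjusted p under 0.05.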

How the data were processed

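Total RNA of 12 libraries (4 groups of 3, mice A, B and C in each) was sequenced. The authors trimmed reads with Trim Galore, aligned them to mm10 with HISAT2 and deposited counts per gene symbol made with featureCounts, plus a deposited normalised signal, which equals the counts divided by 1 size factor per library. Annotation, strand use and handling of multi-mapped reads are not given in the sources used here.

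The counts entered edgeR 4.0.16 under R 4.3.3: filterByExpr (minimum count 10) left 11468 genes, TMM factors were computed, and a robust quasi-likelihood model with 1 term per group was fitted to all 12 libraries, with 5 two-sided contrasts and Benjamini-Hochberg adjustment over all genes. Calls needed an adjusted p under 0.05. SE was derived from each log2 fold change and its F statistic. Changes within a mouse were taken on log2 CPM (prior count 2). Positions and lengths came from GENCODE vM21 (24002 of 24421 symbols matched), promoters from RefSeq. The mouse is given in the labels, so libraries of 1 mouse are paired: 18 same-mouse pairs across groups had correlations of their deviations from the group means of -0.07 to 0.54 (median 0.26; 12 over 0.1), against a median of -0.13 over 36 pairs of other mice. Deviations from a group mean cancel out within the group. The median of the pairs of other mice is thus tied to that of the same-mouse pairs and is no separate check. Each animal gave 1 library per group. The main fit had no term for mouse, so its p-values rest on the spread of libraries within groups and do not use the pairing. The fit with mouse as a block, an alternative, does use it.

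Alternatives were DESeq2 1.42.0, its size factors in edgeR, other filters, mouse as a block, 1 surrogate variable (sva 3.50.0), the compared groups alone, removal of Rn45s, the deposited signal as log2(signal + 1) in limma 3.58.1, and each library or mouse left out. The scripts were tested on simulated data. The members and lists were chosen with earlier results of these data known. All members were named, with up to 3 genes per list with the largest change among those called with iBET and averaging 50 counts or more, and the gene most like each member called in both iBET comparisons. Other list genes were named after their values were seen. Some items are not reported here.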

Additional observations from a re-analysis of the deposited data

How the results depend on the processing

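Precision is limited by 3 animals a group, by counts of 1 to 34 for Ctsk and 1 to 72 for Ctsf, and by 1 shallow DMSO Ova library. With mouse as a replicate block, edgeR called 3 members with iBET in Ova and 2 in IC, as without the block, and the block changed no call of a member in edgeR. Of the list genes, the block added calls for Psap, Grn and Fnip2 in Ova and for Psap, Serpinb1a, Tfe3 and Rragd in IC, and ended none. With the block in DESeq2, 2 members were called in either setting. The members called with iBET in Ova numbered 1, against 3, under DESeq2, its size factors in edgeR, no filter, at least 10 counts in every library, removal of Rn45s, the deposited signal and an adjusted p under 0.01, and 0 with the compared groups alone. Those called in IC numbered 1, against 2, under those size factors, no filter, at least 10 counts in every library, the compared groups alone, the deposited signal and an adjusted p under 0.01. With 1 library or mouse left out, the count ran from 0 to 2 in Ova and from 0 to 3 in IC. The cause was not tested. The counts for IC against Ova and for the interaction were 0 throughout. DESeq2 size factors shifted the median of all genes by -0.04 in Ova and -0.03 in IC.

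The changes of sign below concern values that were called in no fit. Ctsf for IC against Ova in DMSO was -0.02 and became 0.023 with the block in DESeq2, 0.012 with a surrogate variable and 0.51 on the deposited signal. Ctsc for IC against Ova in iBET was -0.01 and became 0.0016 without a filter, 0.0031 with the compared groups alone and 0.0041 without Rn45s. Ctsk with iBET in Ova became 0.078 on the deposited signal. The Ctsa interaction became 0.0044 in DESeq2, 0.0068 with its size factors, 0.0066 with its block, 0.0029 without a filter and with a surrogate variable, 0.013 without Rn45s and 0.0086 on the deposited signal, and the Ctsf interaction became -0.30 on that signal. With 1 library or mouse left out, IC against Ova in iBET ran from -0.019 to 0.15 for Ctsa, -0.064 to 0.073 for Ctsc, -0.23 to 0.10 for Ctsh and -0.27 to 0.15 for Ctsl. IC against Ova in DMSO ran from -0.32 to 0.35 for Ctsf, -0.070 to 0.29 for Ctsh and -0.20 to 0.060 for Ctss. With iBET in Ova, Ctsc ran from -0.15 to 0.042 and Ctsf from -0.055 to 0.45. With iBET in IC, Ctsc ran from -0.050 to 0.12, Ctsh from -0.099 to 0.26, Ctsl from -0.29 to 0.13 and Ctss from -0.098 to 0.33. The interaction ran from -0.074 to 0.096 for Ctsa, -0.12 to 0.10 for Ctsb, -0.021 to 0.19 for Ctsd, -0.028 to 0.55 for Ctsf, -0.38 to 0.015 for Ctsh, -0.49 to 0.033 for Ctsk, -0.36 to 0.073 for Ctss and -0.34 to 0.0049 for Ctsz. The Ctsk difference of mouse C from mouse A, 0.051 with all libraries, was -0.040 without DMSO Ova of mouse A.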
